A study of Mus musculus with 6 samples.

Results

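The 10 genes described here are the MYC network, made up of the 3 MYC genes measured (Myc, Mycl and Mycn), their partner Max and the antagonists Mxd1, Mxd3, Mxd4, Mxi1 and Mnt, together with the long non-coding RNA gene Pvt1. They were chosen by name, with earlier results of these data known. All 10 had a probe set that names a single gene, and they stand among 19937 named genes on the array. Where a gene had several probe sets, the brightest by its mean of all 6 arrays was taken. The cells were A316, a primary mouse adenocarcinoma line with a knockout of Cebpa, which encodes the transcription factor C/EBP alpha. There were 3 arrays of cells treated with PTC-209 (by the labels, a compound for Bmi inhibition) in 0.5% DMSO and 3 arrays of cells treated with 0.5% DMSO only, so both groups carry the knockout and the solvent. The study asks how gene expression differs when Bmi1, a Polycomb protein, is targeted in lung adenocarcinoma cells that lack C/EBP alpha. The sources used here give neither the dose nor the exposure time. A single line was used, and no label says that replicates were grown separately, so p-values cover only the spread among these arrays, and that spread may be technical.

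MYC proteins are transcription factors that bind DNA only as a pair with MAX and raise the expression of genes for growth, ribosome production and division. The MXD proteins, MXI1 and MNT also pair with MAX, bind the same short sequence (the E-box CACGTG) and recruit SIN3 corepressors, so they oppose MYC at its targets. Pvt1 lies next to Myc on chromosome 15, is transcribed into a long non-coding RNA and was first known as a site of chromosome breaks and virus insertions in tumours. In lung adenocarcinoma, MYC activity is often raised.

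All values below are log2 expression made with RMA (robust multi-array average, which corrects background, gives each array the same distribution and summarises the probes of a set), so a difference of 1 is a doubling. Changes were called at an adjusted p under 0.05 in limma. With PTC-209, 6 of the 10 genes rose (Myc, Pvt1, Mxd1, Mxi1, Mxd4 and Mnt), 2 fell (Max and Mxd3) and 2 did not pass the test (Mycl and Mycn). Among all named genes 12.9% rose and 13.7% fell, together 26.6%, against 8 of the 10 members. These shares include genes under the median brightness of all tested probe sets, 4.33. By contrast, 9 of the 10 members reached that brightness in at least 1 group. The share called among genes of like brightness was not computed. Because the members were chosen with earlier results known, setting them beside all named genes is a description only. The count of called members was 5 without PTC-209 replicate 3, DMSO replicate 2 or DMSO replicate 3, and 4, all of them rises, when a fold change above 1.2 was required. With any 1 array left out, 0 or 1 member fell and 5 or 6 rose. The groups did not overlap for 8 members, where this holds for 40.5% of all named genes. The median log2 difference was 0.42 over the members and 0.03 over all named genes.

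On the arrays as a whole, arrays of the same group correlated at 0.992 to 0.996 across probe sets and arrays of different groups at 0.97 to 0.974. The epithelial markers Epcam, Krt8, Krt18, Krt19 and Cdh1 were bright in both groups (list mean 9.52 to 9.65 with PTC-209 and 10.09 to 10.22 with DMSO). Of these the keratins Krt8, Krt19 and Krt18 fell by 0.83, 0.99 and 1.04 on the log2 scale, Cdh1 rose by 0.35 and Epcam did not pass. Of 5 lung epithelial markers 1, Sftpa1, reached the median brightness of 4.33, so Nkx2-1 and the surfactant gene Sftpc were dim. Among markers of other cells, the leukocyte gene Ptprc was dim (3.06 with PTC-209, 3.17 with DMSO), while Cd68, which is also a lysosomal protein, rose by 2.61. The endothelial cadherin Cdh5 fell by 1.33 and the other 3 endothelial markers were dim. Of 5 measured leukocyte markers 2 reached the median brightness in at least 1 group, as did 3 of 5 fibroblast markers. Of the fibroblast markers 0 were called. Over the leukocyte list the mean was 4.73 to 4.82 with PTC-209 and 4.04 to 4.23 with DMSO, over the endothelial list 4.27 to 4.49 with PTC-209 and 4.49 to 4.69 with DMSO, and over the fibroblast list 3.74 to 3.94 with PTC-209 and 3.68 to 3.77 with DMSO. Without Cd68 the other 4 leukocyte markers, none of them called, averaged 3.42 to 3.50 with PTC-209 and 3.20 to 3.44 with DMSO. Without Cdh5 the other 3 endothelial markers, none called, averaged 3.05 to 3.21 with PTC-209 and 2.81 to 3.09 with DMSO, so the lower endothelial mean comes from Cdh5. The part of these markers in the results on the MYC network was not tested. In bulk RNA, fewer cells of a kind and less RNA per cell cannot be told apart.

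Myc, the gene of c-MYC, was among the brighter genes and rose with PTC-209. Its values were 11.04, 11.16 and 11.00 on the PTC-209 arrays, against 10.43, 10.37 and 10.31 on the DMSO arrays. All 3 PTC-209 arrays lay above all 3 DMSO arrays. The group means were 11.07 ± 0.0843 with PTC-209 and 10.37 ± 0.0592 with DMSO (SD, n = 3 each), a log2 difference of 0.70 (SE 0.0944, limma adjusted p = 0.000489). That is a 1.62-fold higher level, with a 95% confidence interval of 1.40 to 1.88, and the change was larger than that of 87.6% of named genes. The array reads mRNA, so it says nothing of the MYC protein.

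Mycn and Mycl, the paralogs best known from neuroblastoma and small cell lung cancer, did not pass the test. Mycn gave 3.60, 3.78 and 4.02 with PTC-209, against 3.63, 3.53 and 3.68 with DMSO, and it was under the median brightness of 4.33 on every array. The groups overlapped, and the log2 difference was 0.19 (95% interval -0.09 to 0.46, limma adjusted p = 0.342). Mycl gave 4.37, 4.54 and 4.67 with PTC-209, against 4.67, 4.80 and 4.76 with DMSO, just above the median brightness on every array. The highest PTC-209 array just reached the lowest DMSO array, and the log2 difference was -0.22 (95% interval -0.46 to 0.02, limma adjusted p = 0.196). These intervals leave room for modest changes of either paralog.

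Max, the shared partner of MYC and of its antagonists, fell with PTC-209. Its values were 8.57, 8.71 and 8.69 with PTC-209, against 9.07, 8.92 and 8.95 with DMSO. All PTC-209 arrays lay below all DMSO arrays, by a small margin. The means were 8.66 ± 0.0755 with PTC-209 and 8.98 ± 0.0795 with DMSO (SD, n = 3 each), a 1.25-fold lower level (95% interval 1.08 to 1.45, limma adjusted p = 0.0367). The call was lost when any 1 of the 6 arrays was left out, with the control probe sets kept and with the replicate number as a block. Requiring a fold change above 1.2 ended the calls of Max, Mxd3, Mxd4 and Mxi1 and left those of Myc, Pvt1, Mxd1 and Mnt.

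**Figure D1:**
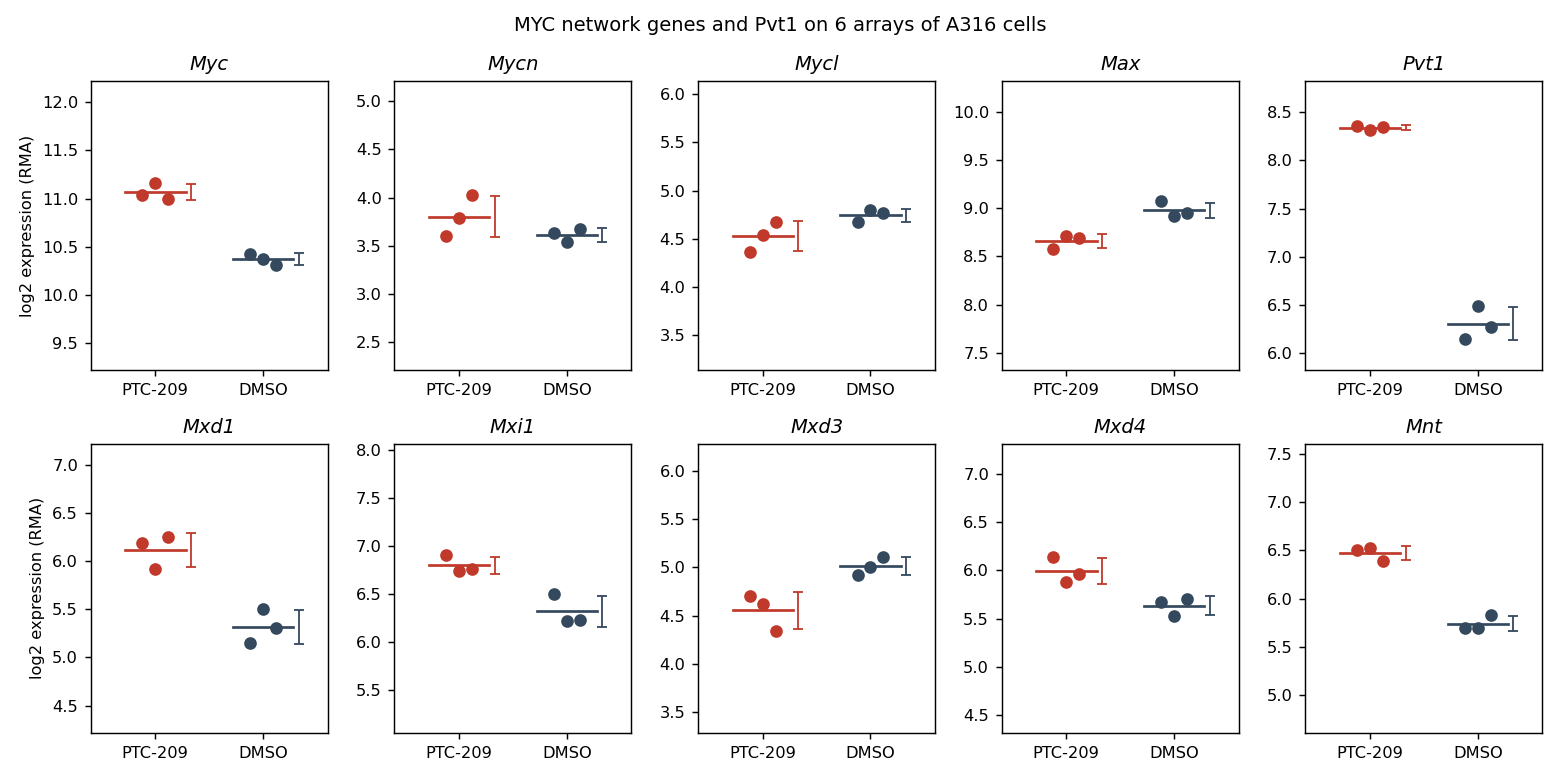
Log2 expression (y axis, RMA units, each panel spanning an equal range) of the 10 genes on the 3 PTC-209 arrays (left, red) and the 3 DMSO arrays (right, grey). Points are arrays, horizontal lines group means and bars their SD. Pvt1 shows the widest gap, Myc, Mnt and Mxd1 lie clearly higher with PTC-209, Max and Mxd3 lie lower, and Mycn and Mycl overlap.

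Of the 5 antagonists, 4 rose and 1 fell. Mxd1, which is known to come on as cells leave the cycle and differentiate, gave 6.19, 5.91 and 6.25 with PTC-209, against 5.15, 5.50 and 5.31 with DMSO. All PTC-209 arrays were above all DMSO arrays. The means were 6.12 ± 0.178 with PTC-209 and 5.32 ± 0.176 with DMSO (SD, n = 3 each), a 1.74-fold higher level (95% interval 1.42 to 2.12, limma adjusted p = 0.00138).

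Mnt, the most widely expressed antagonist, gave 6.51, 6.53 and 6.39 with PTC-209, against 5.70, 5.69 and 5.83 with DMSO. The groups were well apart, at 6.48 ± 0.0726 with PTC-209 and 5.74 ± 0.0773 with DMSO (SD, n = 3 each). Mnt was 1.67-fold higher (95% interval 1.44 to 1.93, limma adjusted p = 0.000348). Mxi1 gave 6.90, 6.74 and 6.76 with PTC-209, against 6.50, 6.22 and 6.23 with DMSO. All PTC-209 arrays lay above the highest DMSO array, and the level was 1.40-fold higher (95% interval 1.17 to 1.66, limma adjusted p = 0.0104).

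Mxd4, like Mxd1 a member linked to differentiated cells, showed the smallest rise of the called members. It gave 6.14, 5.88 and 5.96 with PTC-209, against 5.68, 5.52 and 5.70 with DMSO. The groups did not overlap and the level was 1.28-fold higher (95% interval 1.09 to 1.51, limma adjusted p = 0.0353). The call held in only 1 of the 6 fits that leave out an array, the one without PTC-209 replicate 2, and it was lost with the control probe sets kept.

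Mxd3 differs from the rest of its family in that it is known to be made in dividing cells, in S phase. It gave 4.70, 4.62 and 4.34 with PTC-209, against 4.92, 5.00 and 5.11 with DMSO, and all PTC-209 arrays lay below the lowest DMSO array. The means were 4.55 ± 0.189 with PTC-209 and 5.01 ± 0.0944 with DMSO (SD, n = 3 each), a 1.37-fold lower level (95% interval 1.14 to 1.65, limma adjusted p = 0.0185). The call was lost without PTC-209 replicate 3, DMSO replicate 2 or DMSO replicate 3. Without those same arrays, 0 members counted as fallen, against 1 (Mxd3) without any other array.

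The promoters of 8 of the 10 members, all except Myc and Pvt1, were matched by symbol in RefSeq's table (GRCm38.p6), which gives windows of 300 bases around the start of a gene. The E-box CACGTG, which reads the same on both strands, is in 3 of the 10 windows of these members, those of Max, Mxd4 and Mnt. Over all genes, 7.15% of the 32851 windows hold it. It was not found in the 3 windows of Mxi1 or in those of Mxd1, Mxd3, Mycl and Mycn. Of the 3 genes with the letters, Mnt and Mxd4 rose and Max fell. The first E-box base lies 123 bases before the start in Mnt, 219 in Mxd4 and 3 in Max. The windows of these genes are shown because MYC and its antagonists bind this sequence, and that of Mxd1 because it rose without it. Each is given 5′ to 3′ from 250 bases before to 30 after the start, with CACGTG in capitals.
Mnt, chr11:74830674-74830953, plus strand: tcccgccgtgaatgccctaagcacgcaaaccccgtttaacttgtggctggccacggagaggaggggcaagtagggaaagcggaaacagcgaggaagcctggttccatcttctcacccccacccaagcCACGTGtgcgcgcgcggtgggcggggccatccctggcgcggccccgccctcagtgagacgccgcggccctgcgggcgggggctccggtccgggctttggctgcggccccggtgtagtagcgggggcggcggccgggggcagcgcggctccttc
Mxd4, chr5:34187681-34187960, minus strand: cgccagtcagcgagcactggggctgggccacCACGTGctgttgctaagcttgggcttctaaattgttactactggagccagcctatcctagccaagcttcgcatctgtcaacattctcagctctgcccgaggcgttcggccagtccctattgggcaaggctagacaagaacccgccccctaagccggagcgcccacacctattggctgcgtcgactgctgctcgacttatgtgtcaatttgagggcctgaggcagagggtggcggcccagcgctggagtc
Max, chr12:76962219-76962498, minus strand: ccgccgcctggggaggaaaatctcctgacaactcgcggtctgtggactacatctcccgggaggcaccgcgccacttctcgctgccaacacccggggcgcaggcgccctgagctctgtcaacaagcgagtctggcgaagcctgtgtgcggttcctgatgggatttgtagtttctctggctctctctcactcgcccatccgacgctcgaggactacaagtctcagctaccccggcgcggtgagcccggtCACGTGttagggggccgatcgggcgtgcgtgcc
Mxd1, chr6:86669130-86669409, minus strand: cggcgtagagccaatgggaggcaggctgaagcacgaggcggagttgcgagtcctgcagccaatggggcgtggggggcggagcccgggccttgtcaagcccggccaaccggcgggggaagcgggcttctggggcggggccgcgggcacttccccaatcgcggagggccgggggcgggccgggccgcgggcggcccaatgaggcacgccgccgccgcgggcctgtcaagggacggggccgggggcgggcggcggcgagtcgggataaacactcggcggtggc
A match of letters is a description of the window and does not show that a factor binds there.

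Pvt1 changed the most of the 10 genes. Its values were 8.36, 8.31 and 8.35 on the PTC-209 arrays, against 6.15, 6.49 and 6.27 on the DMSO arrays. The PTC-209 arrays lay close together and far above every DMSO array. The means were 8.34 ± 0.025 with PTC-209 and 6.31 ± 0.172 with DMSO (SD, n = 3 each), a log2 difference of 2.04 (SE 0.108, limma adjusted p = 1.48e-06) and a 4.10-fold higher level (95% interval 3.46 to 4.86). It ranked 41 among the rises of the 19937 genes.

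A second Pvt1 probe set, annotated to a single transcript of the gene, was far under the median brightness of 4.33 in both groups. It gave 1.86, 1.73 and 1.63 with PTC-209, against 1.79, 1.65 and 1.79 with DMSO, with a log2 difference of -0.00 (95% interval -0.23 to 0.22, limma adjusted p = 0.992). The rise of Pvt1 therefore rests on its bright probe set, and the mean of both probe sets gave a log2 difference of 1.02 in place of 2.04. No other member had a second probe set.

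In RefSeq's order of genes (GRCm38.p6), Pvt1 is the next gene after Myc. Within each array the log2 value of Myc minus that of Pvt1 was 2.68, 2.85 and 2.65 with PTC-209, against 4.28, 3.88 and 4.04 with DMSO. The means were 2.73 ± 0.107 with PTC-209 and 4.07 ± 0.199 with DMSO (SD, n = 3 each), a difference of -1.34, and the groups did not overlap. The exact two-sided permutation p was 0.1, the smallest that this test can give for 3 arrays against 3. It is an unequal change, not a ratio of transcript levels. Of the 6 measured genes nearest to the pair, 3 on each side, 1 rose (16.7%, beside 12.9% of all named genes) and 5 did not pass. The gene that rose was Lratd2, the farthest of the 3 before Myc, with 6.22 ± 0.116 with PTC-209 and 5.08 ± 0.0703 with DMSO (SD, n = 3 each), a 2.21-fold higher level (limma adjusted p = 3.24e-05). The other 5 were dim in at least 1 group. These neighbours were chosen after the members' values were seen.

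**Figure D2:**
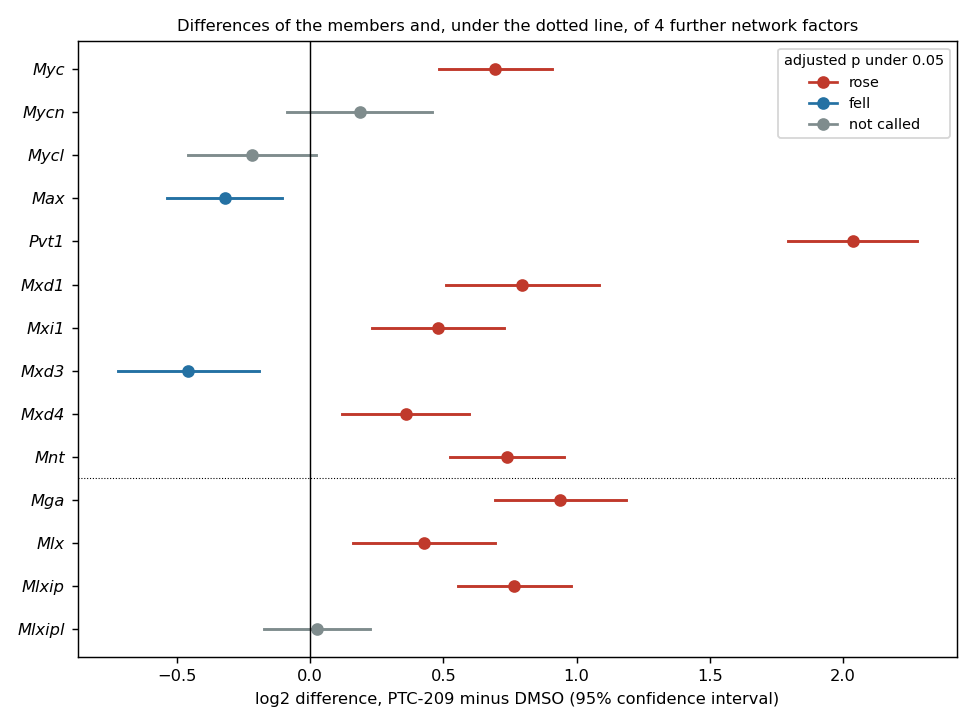
Log2 difference, PTC-209 minus DMSO (x axis), of the 10 members and of 4 further network factors, with 95% confidence intervals as lines. Red marks a rise, blue a fall and grey a gene past neither threshold. Pvt1 stands at 2.04, the 5 other rises of the members lie between 0.36 and 0.80, and Max, at -0.32, has the smallest called change.

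In the wider network, Mga, Mlx, Mlxip and Txnip rose. The list of other MAX-like factors holds Mga, which pairs with MAX, and Mlx, Mlxip and Mlxipl, which form the parallel glucose-sensing branch, with the branch's targets Txnip and Arrdc4. Of these 6 genes 4 rose and 0 fell in limma (0 falls also at an unadjusted p under 0.05), with a median log2 difference of 0.60. Here and for the lists that follow, the shares over all named genes are 12.9% for rises and 13.7% for falls. Those shares include dim genes, while most measured genes of each list reached the median brightness. The lists, too, were chosen with earlier results of these data known. Mga was 1.92-fold higher, at 8.61 ± 0.163 with PTC-209 and 7.67 ± 0.0669 with DMSO (SD, n = 3 each, limma adjusted p = 0.000181). Mlxip, the gene of MondoA, was 1.70-fold higher (limma adjusted p = 0.000268), and Txnip, an inhibitor of thioredoxin and of glucose uptake, 2.70-fold higher (limma adjusted p = 4.43e-05). Mlx was 1.35-fold higher (limma adjusted p = 0.0261), a call that stayed only without DMSO replicate 1 among the 6 fits that leave out an array and was lost with the control probe sets kept or a fold change above 1.2 required. Mlxipl, the gene of ChREBP, and Arrdc4 were dim and their log2 differences were 0.03 and 0.04.

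Among subunits of the SIN3 complex, through which MXD proteins and MNT repress, Hdac1, Sap18 and Rbbp7 fell. Of 10 measured subunits 0 rose and 3 (30%) fell in limma (1 rise at an unadjusted p under 0.05), and the median log2 difference was -0.20. The histone deacetylase Hdac1 was 2.45-fold lower, at 8.25 ± 0.0098 with PTC-209 and 9.55 ± 0.0495 with DMSO (SD, n = 3 each, limma adjusted p = 6.32e-06). Sap18 was 2.29-fold lower and the histone-binding subunit Rbbp7 1.62-fold lower. The scaffold Sin3a had a log2 difference of 0.20 that did not pass (limma adjusted p = 0.225). Sin3b, the 1 rise at an unadjusted p under 0.05, had one of 0.22 that did not pass after adjustment (limma adjusted p = 0.142). Without DMSO replicate 1 the count of falls was 5.

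Of 14 measured cofactors of MYC 4 rose (28.6%) and 2 fell (14.3%), where 12.9% of all named genes rose and 13.7% fell. The elongation cyclin Ccnt1 was 1.91-fold higher (limma adjusted p = 6.12e-05), its kinase Cdk9 1.37-fold, and Wdr5, which helps MYC to sit on chromatin, 1.49-fold. The fourth rise was Hcfc1. Trrap, the scaffold that brings histone acetyltransferases to MYC, was 1.59-fold lower (limma adjusted p = 0.00609), and the acetyltransferase Kat2a 1.49-fold lower (limma adjusted p = 0.00212). Requiring a fold change above 1.2 ended the calls of Wdr5, Trrap, Cdk9 and Hcfc1. The number of rises was 2 without PTC-209 replicate 1 or 2 or DMSO replicate 2 or 3, where Cdk9 and Hcfc1 lost their calls, and Cdk9 also lost its call without PTC-209 replicate 3. It was also 2 with the control probe sets kept.

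Of 17 measured genes that act on the stability of the MYC protein 6 rose (35.3%) and 4 fell (23.5%). Ppp2r5a, a PP2A subunit that favours MYC degradation, was 2.02-fold higher, at 8.47 ± 0.204 with PTC-209 and 7.46 ± 0.154 with DMSO (SD, n = 3 each, limma adjusted p = 0.00034). Cip2a, an inhibitor of PP2A that stabilises MYC, was 5.57-fold lower, at 5.43 ± 0.0912 with PTC-209 and 7.91 ± 0.176 with DMSO (SD, n = 3 each, limma adjusted p = 7.49e-07). The MYC deubiquitinase Usp36 was 1.98-fold higher. Aurka, a mitotic kinase that shields MYC proteins, was 3.20-fold lower (limma adjusted p = 2.58e-06). Fbxw7, the ubiquitin ligase subunit that recognises MYC, had a log2 difference of 0.15 that did not pass (limma adjusted p = 0.683).

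Genes that MYC is known to induce moved in both directions. Of 38 ribosome biogenesis genes 8 rose (21.1%) and 12 fell (31.6%), with a median log2 difference of -0.00 beside 0.03 over all named genes. Nop14 was 2.11-fold higher (limma adjusted p = 2.07e-05) and Rrp12 1.56-fold higher, both processing factors of the small ribosomal subunit. Wdr12 was 2.27-fold lower (limma adjusted p = 2.84e-05) and the RNA polymerase I subunit Polr1b 2.09-fold lower. Of the abundant nucleolar genes, Ncl and Npm1 had log2 differences of 0.40 and 0.38 that did not pass (limma adjusted p = 0.129 and 0.141). Fbl, at 10.13 with PTC-209 and 10.68 with DMSO, was 1.47-fold lower (limma adjusted p = 0.00145).

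Of 34 MYC-induced genes of metabolism and growth 6 rose (17.6%) and 5 fell (14.7%), shares near the 12.9% and 13.7% of all named genes, with a median log2 difference of 0.00. The mitochondrial folate enzyme Mthfd2 was 2.67-fold higher (limma adjusted p = 9.98e-06) and the hexokinase Hk2 2.21-fold higher (limma adjusted p = 0.000421). The arginine methyltransferase Prmt1 was 2.14-fold lower (limma adjusted p = 4.85e-05) and the nucleotide phosphatase Dctpp1 1.52-fold lower. Odc1, the polyamine enzyme often used as a readout of MYC, was at 10.57 ± 0.0109 with PTC-209 and 10.51 ± 0.15 with DMSO (SD, n = 3 each), a log2 difference of 0.06 that did not pass (limma adjusted p = 0.774). With the mean of all Odc1 probe sets the log2 difference was 0.107, which did not pass either (limma adjusted p = 0.57). The count of falls was 3 without PTC-209 replicate 2 or 3.

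Of 15 MYC-induced cell cycle genes 1 rose and 10 (66.7%) fell, with a median log2 difference of -0.90. The gene that rose was Ccnd2, cyclin D2, at 8.67 ± 0.0985 with PTC-209 and 7.51 ± 0.184 with DMSO (SD, n = 3 each), 2.23-fold higher (limma adjusted p = 7.61e-05). Id2, an inhibitor of differentiation factors, was 6.53-fold lower and the centriole kinase Plk4 4.92-fold lower. Most genes of this list are also induced by E2F factors or peak in mitosis, so the list is not specific to MYC.

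Of 15 measured genes that MYC is known to repress 10 rose (66.7%) and 2 fell (13.3%), with a median log2 difference of 0.46. The list counts Cebpa, which is knocked out in these cells. Cebpa was dim (3.79 with PTC-209, 3.65 with DMSO) and did not pass. The largest rises were those of Gadd45a, 10.7-fold higher, and Hmox1, 9.67-fold higher. Both are also stress genes, as is Ddit3 in the same list, so the list too is not specific to MYC. Ndrg2 was 3.49-fold lower (limma adjusted p = 9.07e-06) and Thbs1, a matrix protein, 1.37-fold lower (limma adjusted p = 0.0394). Thbs1 lost its call, which left 1 fall, without PTC-209 replicate 2 or 3 or DMSO replicate 1 or 3, and also after median centring or with the control probe sets kept.

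**Figure D3:**
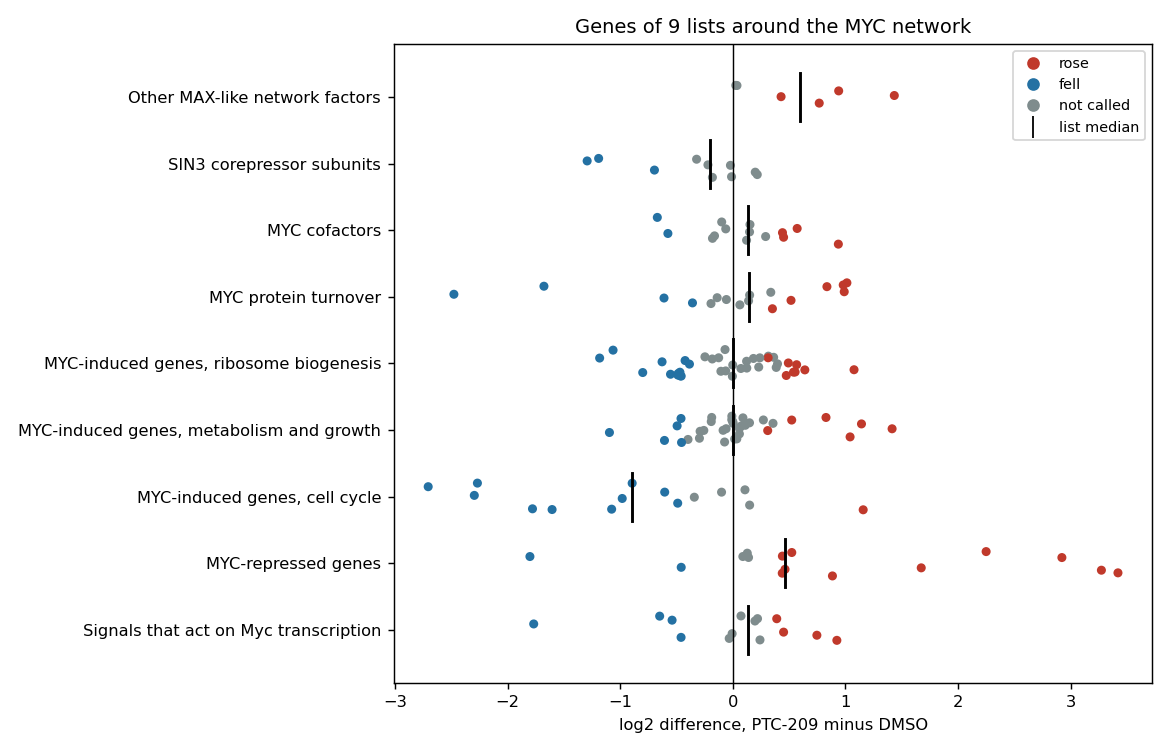
Log2 difference, PTC-209 minus DMSO (x axis), of the measured genes of 9 lists around the MYC network (rows). Points are genes, red for a rise, blue for a fall and grey for neither, and black marks are list medians. The medians of the ribosome and metabolism lists lie at 0, that of the cell cycle list at -0.90 and that of the MYC-repressed list at 0.46.

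Among 14 measured genes that act on Myc transcription 4 rose and 4 fell (28.6% each). Cnbp, which binds a control element of the Myc promoter, was 1.90-fold higher (limma adjusted p = 0.000123) and Stat3 1.68-fold higher (limma adjusted p = 0.00135). Foxm1, a factor of the mitotic genes, was 3.41-fold lower (limma adjusted p = 5.86e-06) and the Wnt effector Tcf7l2 1.57-fold lower (limma adjusted p = 0.00147). Bmi1 is the Polycomb gene that the study targets. It was at 7.01 ± 0.075 with PTC-209 and 7.55 ± 0.141 with DMSO (SD, n = 3 each). That is a 1.45-fold lower level (limma adjusted p = 0.00424). The call held in 15 of 16 other settings of the fit, among them all 6 that leave out an array. It was lost when a fold change above 1.2 was required.

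The genes most like Myc and Pvt1 over the 6 arrays were found by the root mean square difference between values centred on each gene's own mean, where 0 is an identical profile. Predicted genes, such as those with Gm or Rik symbols, were left out of the search. For Myc these were the Golgi tether Golga4 (0.0334), the stress-activated kinase Mapkapk2 (0.0418), Mlxip (0.0418) and Smap2 (0.0427), all on the log2 scale. For Pvt1 they were the lipid droplet gene Hilpda (0.0714), Maged1 (0.0907), the serine synthesis enzyme Psph (0.097) and Dennd4a (0.1). With arrays of PTC-209 and DMSO only, a small value mostly marks a gene with a like difference between the groups. Golga4, for example, differed by 0.68 and Myc by 0.70, Hilpda by 2.11 and Pvt1 by 2.04. Shared control of these genes was not tested.

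**Figure D4:**
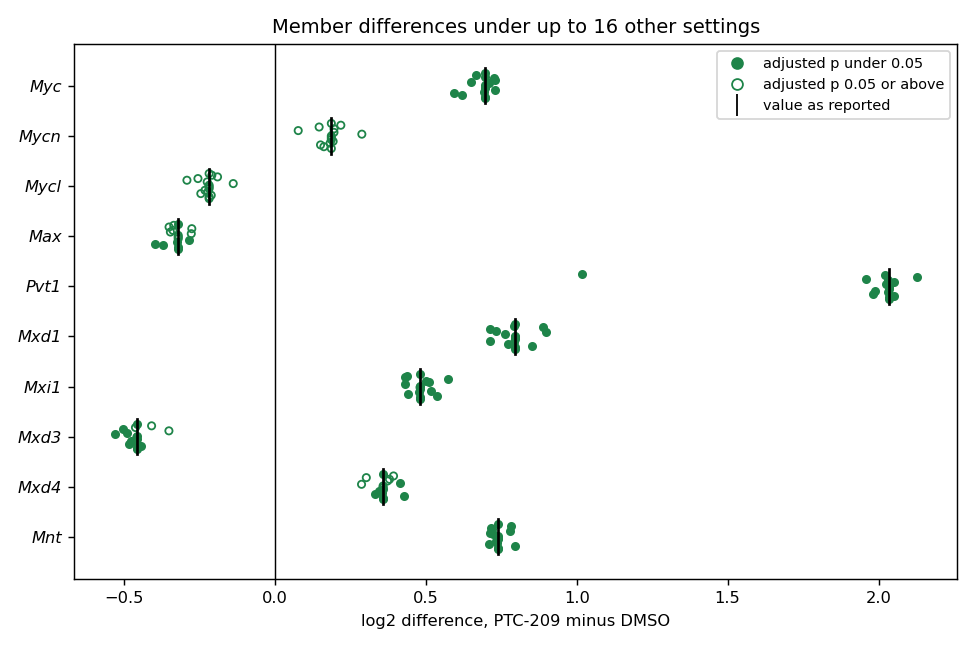
Log2 difference, PTC-209 minus DMSO (x axis), of each member under up to 16 other settings of the fit, with filled points where the adjusted p stayed under 0.05, open points where it did not, and black marks for the reported value. Myc, Pvt1, Mxd1 and Mnt are filled throughout, Max, Mxd3 and Mxd4 are open in several settings, and no point lies across 0 from its reported value.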

How the data were processed

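RNA of 6 samples was read on Affymetrix arrays. The authors deposited log2 values, made with RMA per the submitters' processing notes (the sources used here give no version, build or scan date); that they are log2 follows from their range. Groups and replicate numbers come from the titles. The free-text description names embryo stages, against every other label, and was not used. Of 34760 probe sets, 6568 were left out as a block of control identifiers with 0 listed genes, and 28192 were tested, of which 21640 name a single gene.

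Differences were fitted with limma 3.58.1 in R 4.3.3 (treatment as the only term, eBayes), with Benjamini and Hochberg adjustment over all tested probe sets, a threshold of 0.05, 4 residual degrees of freedom and 5.27 prior ones. The fit was tested on simulated data. Precision is limited by 3 arrays a group. The members and the 9 lists (173 genes, 162 measured) were chosen with earlier results of these data known. From each list the text names the 2 largest rises and falls past the threshold, every member of a count of 3 or fewer, and Bmi1. Also named, but chosen after their values were seen, are Mlx, Mlxip, Cdk9, Hcfc1, Sin3a, Sin3b, Fbxw7, Ncl, Npm1, Fbl, Odc1, Ddit3 and Cebpa. Genes were named from the platform annotation. Each listed gene is given by its brightest probe set, and further probe sets of listed genes are not shown singly. Figures were drawn with matplotlib 3.10.9.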

Additional observations from a re-analysis of the deposited data

How the results depend on the processing

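In all 159 comparisons of a member under another setting the sign stayed that of the reported difference. Myc, Mxd1, Mnt and Pvt1 kept their calls under every setting tried, and Mxi1 under all except a required fold change of 1.2.

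Requiring a fold change above 1.2 left 4 called members, 0 of them falls, 1270 genes higher and 1610 lower over the array, and 23 rises and 25 falls among the listed genes. By list it left 1 rise and 1 fall of cofactors, 2 rises and 4 falls of ribosome biogenesis, 2 falls of metabolism, 6 rises and 1 fall of MYC-repressed genes, and 2 rises and 2 falls of Myc regulators. Keeping the control probe sets, which adds tests, left 1 fallen member, 2 rises of cofactors and 1 fall of MYC-repressed genes. Median centring also left 1 fall there, and cyclic loess gave 9 falls of metabolism. The cause of these 2 was not tested. With the mean of all probe sets, Myc minus Pvt1 was -0.32, since the second Pvt1 probe set is dim and did not pass.

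Leaving out 1 array gave 5 to 6 risen, 0 to 1 fallen and 5 to 7 called members (8 with all arrays; 5 without PTC-209 replicate 3 or DMSO replicate 2 or 3). It gave 2068 to 2647 rises and 2264 to 2484 falls over the array, 33 to 42 and 32 to 39 among the listed genes, and -1.43 to -1.23 for Myc minus Pvt1. By list, SIN3 subunits had 3 to 5 falls, cofactors 2 to 4 rises, metabolism 3 to 5 falls and MYC-repressed genes 1 to 2 falls. Odc1 changed sign with cyclic loess (-0.0435) and ran from -0.0288 (without DMSO replicate 1) to 0.106 when 1 array was left out, and Fbxw7 from -0.0571 (without that array) to 0.322.

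The replicate numbers did not clearly pair the arrays as a whole. Deviations from the group means correlated at 0.231, 0.0703 and 0.0733 within replicate numbers 1, 2 and 3, and at -0.163 to 0.105 between unequal numbers. For the arrays numbered 1, the correlations with other numbers were all negative, -0.163 to -0.11. Deviations from a group mean cancel within the group, so the positive value of 0.231 makes these negative on balance. They are therefore not separate evidence on pairing. Of the 6 arrays, 3 correlated best with their own number. With the replicate number as a block, 1 member fell, Mxd3 and not Max.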
